A study of Mus musculus with 4 samples.

Results

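Glypicans are heparan sulfate proteoglycans held on the outer face of the cell membrane by a glycosylphosphatidylinositol (GPI) anchor. Their core protein and sulfated sugar chains bind secreted signals such as Hedgehog, Wnt, fibroblast growth factor and bone morphogenetic protein ligands, and they can help or hinder the meeting of a ligand with its receptor. Gpc3 is known for binding Hedgehog ligand in competition with the receptor Patched, and its loss causes an overgrowth syndrome in humans, whereas Gpc4 and Gpc6 are known for promoting Wnt or Hedgehog signalling in development.

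The mouse family, Gpc1 to Gpc6, was taken whole by gene symbol, which gave 6 genes of 55573 in the tables. It was chosen for description because Gpc3 was low with the siRNA against Dyrk2 and in no other library, so the levels and ratios below are a description and carry no test. Dyrk2 encodes a protein kinase, and the study's title concerns its phosphorylation of the Hedgehog transcription factors GLI2 and GLI3. RNA was sequenced from fibroblasts of mouse embryos in primary culture (primary MEF), which are not an established line, and all cultures received 100 nM SAG, a Smoothened agonist that switches on the Hedgehog pathway, over 24 h. One culture had a wild-type genotype and another was a Dyrk2 knockout (Dyrk2-KO), neither given siRNA according to the labels. The remaining pair were wild-type cells given either siNegative (siNeg), a control siRNA, or siDyrk2, directed at Dyrk2. Each of the 4 groups was 1 library. The strain, the age and sex of the embryos, the knockout allele, the siRNA sequence and whether cultures came from separate embryos are not stated in the labels, and cultures without SAG were not analysed here.

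Levels are FPKM, fragments per kilobase of exon scaled to the fragments in the library, which allows levels of different genes to be compared. Depth was recovered from the steps of the low FPKM values and came to 19980000 to 23926000 fragments per library. A log2 ratio compares FPKM + 1, a fold is the plain ratio of FPKM, and the interval after a fold is an exact 95% conditional binomial interval on recovered fragments, which leaves out any difference between cultures. A gene was counted as different when FPKM + 1 differed at least 2-fold, among the 12817 that reached 1 FPKM in any library. The labels were checked on Dyrk2, which stood at 6.59 FPKM in wild type, 0.57 in the knockout, 7.06 with siNeg and 0.81 with siDyrk2. Of 9 fibroblast markers, all 9 were measured, with sums of 5927 to 8341 FPKM. Of the other marker lists, 1 of 5 endothelial genes was measured (2.55 to 4.63 FPKM, with Tie1 listed at 0 in all 4 libraries), 1 of 5 epithelial (1.58 to 3.59 FPKM), 1 of 4 muscle (0.72 to 1.89 FPKM, with Myf5 listed at 0) and 2 of 4 chondrocyte (sums of 4.76 to 5.15 FPKM). Of 5 neural markers 3 were measured, with Elavl3 listed at 0 and sums of 16.4 FPKM in wild type, 11.3 in the knockout, 17.3 with siNeg and 27.2 with siDyrk2. Macrophage markers were present (7 of 8 measured, Ptprc below 1 FPKM), with sums of 228.7 FPKM in wild type, 477.1 in the knockout, 258.2 with siNeg and 322.1 with siDyrk2. Transcripts of 4 Y-linked genes, such as Ddx3y at 8.28 FPKM, were seen in the knockout and were at most 0.02 FPKM elsewhere, while Xist was 26.4 to 37.1 FPKM in all 4. The sex make-up of the knockout culture therefore differed from that of the others, and Gpc3 and Gpc4 are X-linked. In the knockout comparison, genotype, sex make-up and embryo source cannot be told apart.

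In the GENCODE M21 annotation of GRCm38, the family lies at 4 places, and 4 of the 6 genes form neighbouring pairs. Gpc4 (chrX:52053021-52165252, minus strand, 9 exons) and Gpc3 (chrX:52272426-52613950, minus strand, 8 exons) are 107 kb apart. Gpc5 (chr14:115092215-116525179, plus strand, 8 exons) and Gpc6 (chr14:116925315-117976544, plus strand, 10 exons) are 400.1 kb apart. Gpc1 (chr1:92831645-92860779, plus strand, 9 exons) and Gpc2 (chr5:138273655-138280005, minus strand, 10 exons) stand alone. The genes differ far more in length than their products do. They span 6.35 kb for Gpc2 to 1433 kb for Gpc5, yet the coding sequences hold 557 codons in Gpc1 and Gpc4, 565 in Gpc6, 572 in Gpc5 and 579 in Gpc2 and Gpc3.

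The Gpc3 start region is shown because Gpc3 was the family member with a low value and its near neighbour Gpc4 was not. The sequence is the 250 bases before the RefSeq start site on GRCm38.p6, chrX:52613975-52614224, minus strand, with GC boxes (GGGCGG or its complement CCGCCC, the motif bound by Sp1-type factors) in capitals.
Gpc3: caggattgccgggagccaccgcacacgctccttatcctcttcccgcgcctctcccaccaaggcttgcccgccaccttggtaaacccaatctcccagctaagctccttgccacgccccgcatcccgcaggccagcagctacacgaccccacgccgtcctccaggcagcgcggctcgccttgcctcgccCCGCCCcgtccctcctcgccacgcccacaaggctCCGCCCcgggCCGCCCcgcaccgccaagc
RefSeq windows of 300 bases (250 before and 50 after the start) were matched for 4 of the 6 genes, Gpc2, Gpc3, Gpc4 and Gpc5, and not for Gpc1 and Gpc6. The Gpc3 window held 4 GC boxes, 30 CpG pairs and 70.7% G and C bases, against medians of 7 CpG pairs and 52.7% over 32851 windows. The Gpc4 window, which lies within the first exon of the GENCODE transcript, held 1 GC box and 22 CpG pairs at 66.7% G and C. The Gpc2 window held 3 GC boxes and 26 CpG pairs at 65.7%, and the Gpc5 window 1 GC box and 17 CpG pairs at 54.7%. GC boxes on either strand were present in 35.7% of all windows. The GLI-binding sequence GACCACCCA, searched on both strands, had 0 matches in the 4 windows and occurred in 0.253% of all windows. The TATA sequence TATAAA had 1 match in the window of Gpc5 and occurred in 13.6% of all windows, and the E-box CACGTG had 0 matches in the 4 windows and occurred in 7.15%. A match or its absence describes these letters in these windows and nothing about a factor.

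Gpc4 was the leading glypican transcript in every library, and the order of the rest was Gpc3, then Gpc6 and Gpc1, then Gpc2, with Gpc5 at or near 0. Gpc4 stood at 265.4 FPKM in wild type, 246.5 in the knockout, 255 with siNeg and 248.8 with siDyrk2, so it was about equally high in all 4. Gpc3 stood at 98.9 FPKM in wild type, 87.6 in the knockout, 97.2 with siNeg and 39.6 with siDyrk2. The siDyrk2 library is the low one for Gpc3, and the other 3 lie close together. Gpc3 was the 346th highest gene in wild type and the 1198th with siDyrk2.

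Gpc6, whose loss shortens the limbs in humans, stood at 25.7 FPKM in wild type, 28.7 in the knockout, 23.5 with siNeg and 20 with siDyrk2. Gpc1, a glypican of many adult tissues including brain and muscle, stood at 19.3 FPKM in wild type, 20.6 in the knockout, 12.6 with siNeg and 22.2 with siDyrk2. For Gpc1 it is siNeg, a control, that is the low library. Gpc6 was above Gpc1 in 3 libraries, by 1.33-fold (1.27 to 1.40) in wild type, 1.39-fold (1.32 to 1.47) in the knockout and 1.86-fold (1.74 to 1.99) with siNeg. With siDyrk2 the order was the other way, with a Gpc6 to Gpc1 ratio of 0.903 (0.855 to 0.954).

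Gpc2, best known from the developing nervous system, was scarce, at 1.91 FPKM in wild type, 2.11 in the knockout, 1.09 with siNeg and 1.54 with siDyrk2. These rest on 93 to 197 fragments. In the annotation, 2376 exon bases of Gpc2 (55.6%) are shared on the same strand with Gm43720, which is listed at 0 FPKM in all 4 libraries, so its level is uncertain if reads in the shared part were set aside. Gpc1 shares 977 exon bases (18.9%) on the opposite strand with Ankmy1, which was at most 0.07 FPKM. Gpc5 was listed at 0 in 3 libraries and at 0.01 FPKM (1 fragment) with siDyrk2. A count of 0 allows up to 0.0282 FPKM in wild type, 0.0308 in the knockout and 0.0337 with siNeg, counting 3 fragments as the limit, so the transcript was not detectable at this depth in those 3 libraries.

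**Figure D1:**
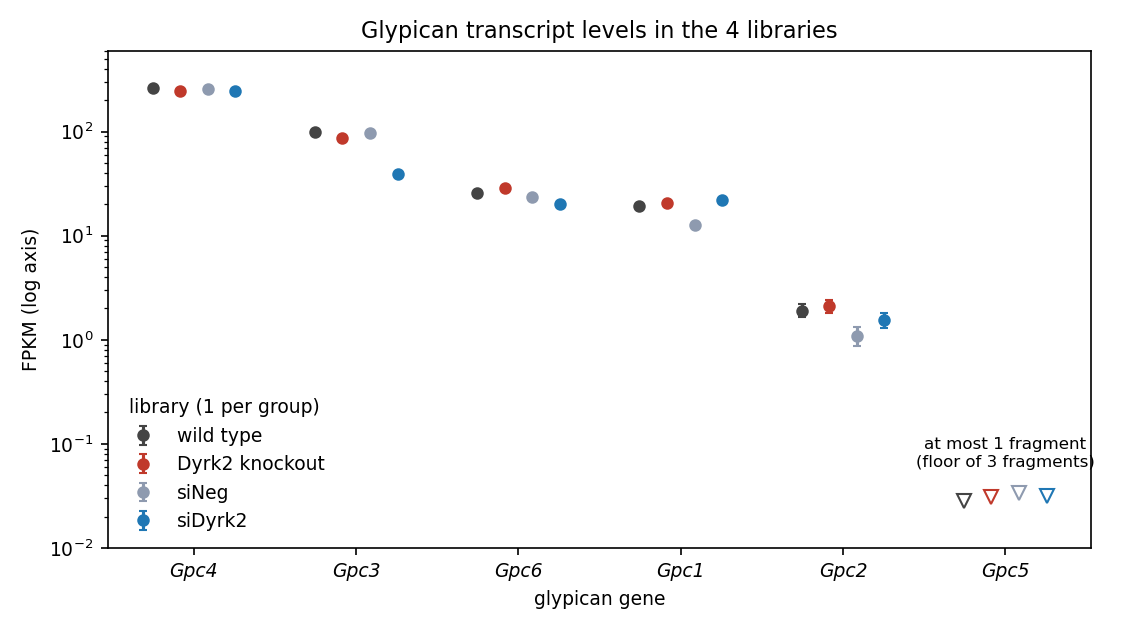
FPKM of each glypican (log axis) in the 4 libraries, 1 point per library, 1 library per group. Gpc4 stays between 246.5 and 265.4 FPKM, and for Gpc3 the siDyrk2 point at 39.6 lies apart from the other 3, at 87.6 to 98.9.

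Summed over the family, glypican transcripts came to 411.2 FPKM in wild type, 385.5 in the knockout, 389.4 with siNeg and 332.2 with siDyrk2. The siDyrk2 sum was 14.7% below that of siNeg, and without Gpc3 the sums were 292.6 and 292.2 FPKM, a difference of 0.13%. That near equality joins higher Gpc1 and Gpc2 with lower Gpc4 and Gpc6, and the wild-type sum without Gpc3 was 312.3 FPKM. The family's make-up differed accordingly in the siDyrk2 library. Gpc3 supplied 24.1% of family FPKM in wild type, 22.7% in the knockout, 25% with siNeg and 11.9% with siDyrk2, and Gpc4 supplied 64.6%, 63.9%, 65.5% and 74.9% in the same order. The Gpc4 to Gpc3 ratio within a library was 2.68 (2.61 to 2.76) in wild type, 2.81 (2.72 to 2.90) in the knockout, 2.62 (2.54 to 2.71) with siNeg and 6.28 (6.01 to 6.57) with siDyrk2.

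The siDyrk2 against siNeg comparison asks what follows when Dyrk2 is depleted by siRNA in SAG-treated cells. Gpc3 was 2.45-fold lower (2.34 to 2.58), from 5226 to 2288 fragments, a log2 ratio of -1.27. It was the only glypican past 2-fold, 1 of 5 counted, beside 1.54% of all genes in either direction and 0.796% lower. Since the gene was chosen on this comparison, nothing is read from that count or from the ranks that follow. The ratio was the 46th lowest of 12817. Among 995 genes that reached 50 FPKM in any library it was the 2nd lowest. The one lower was Cmtm3 (named after its value was seen), at 17 against 56.9 FPKM. Both genes were below 50 FPKM with siDyrk2 and entered that set through other libraries. Against wild type, the siDyrk2 library was 2.50-fold lower for Gpc3 (2.38 to 2.62). These are bulk libraries, in which fewer cells of a type and less RNA per cell cannot be told apart.

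The other members differed less with siDyrk2, and not in 1 direction. Gpc1 was 1.76-fold higher than in siNeg (1.64 to 1.88), a log2 ratio of 0.77, but only 1.15-fold higher than in wild type (1.09 to 1.22). Gpc2 was 1.41-fold higher than in siNeg (1.08 to 1.85). It stood at 0.806 of wild type (0.644 to 1.01), an interval that includes 1, so no direction is given against wild type. Gpc6 was at 0.852 of siNeg (0.809 to 0.898) and 0.781 of wild type (0.743 to 0.820), lower against both. Gpc4 was at 0.976 of siNeg (0.953 to 0.999), a log2 ratio of -0.04. The median of the 5 log2 ratios was -0.04, against 0.02 over all genes counted. Beside these ratios, the fibroblast markers summed to 7322 FPKM with siNeg and 5927 with siDyrk2 (6 of 9 lower, median log2 ratio -0.31) and all 7 measured macrophage markers were higher, and their part in the glypican ratios was not tested.

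In the knockout against wild type, no glypican passed 2-fold, 0 of 5, beside 1.78% of all genes in either direction and 1.21% lower. Gpc3 was 1.13-fold lower (1.09 to 1.17), a log2 ratio of -0.17, which was the 2815th lowest of 12817. Gpc4 was at 0.929 of wild type (0.908 to 0.950). Gpc6 was 1.12-fold higher (1.07 to 1.17), Gpc1 1.07-fold higher (1.01 to 1.13), and Gpc2 1.10-fold higher with an interval that includes 1 (0.902 to 1.35). All 5 log2 ratios lay between -0.17 and 0.16, with a median of 0.09 against -0.02 over all genes. The mitotic list was lower in this library (13 of 13 measured genes, sums of 42.3 FPKM in the knockout and 116.2 in wild type) and all 7 measured macrophage markers were higher, and their part in these ratios was not tested.

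Both controls, siNeg and wild type, also differed for some members. In siNeg against wild type 0 of 5 glypicans passed 2-fold, beside 0.928% of all genes, and all 5 ratios were below 0, with a median log2 ratio of -0.12 against -0.01 over all genes. In the same comparison all 13 measured mitotic genes were higher (sums of 169.7 FPKM with siNeg and 116.2 in wild type, median 0.46), as were all 7 measured macrophage markers (median 0.36), and their part in the glypican ratios was not tested. Gpc1 was 1.53-fold lower with siNeg (1.42 to 1.63) and Gpc2 1.75-fold lower (1.36 to 2.27). Gpc3 was at 0.983 (0.948 to 1.02), Gpc4 at 0.961 (0.939 to 0.983) and Gpc6 at 0.916 (0.873 to 0.961). Between the 2 control libraries the log2 ratio was -0.57 for Gpc1, -0.48 for Gpc2 and -0.02 for Gpc3, beside 0.77, 0.28 and -1.27 for siDyrk2 against siNeg. The control gap was smaller than the siDyrk2 gap for Gpc1 and larger for Gpc2. For Gpc3 it was far smaller, but Gpc3 was chosen as low with siDyrk2 only, so nothing is read from that. The siNeg library enters both of those comparisons, and the spread between replicate cultures is not known for any of them.

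**Figure D2:**
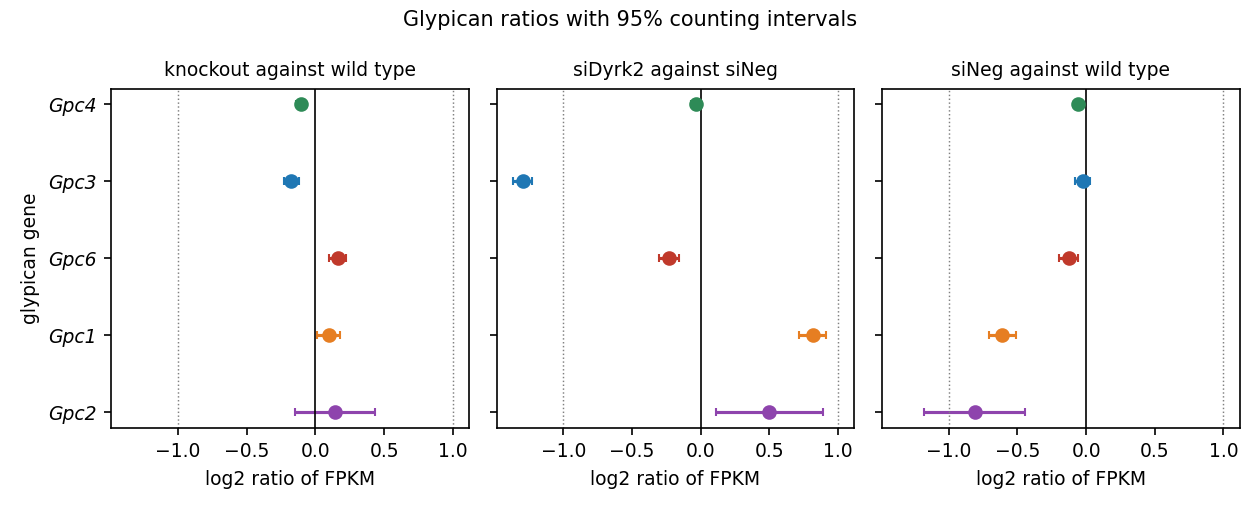
Log2 ratio of FPKM for the 5 counted glypicans in 3 comparisons. Points are single-library ratios, bars are 95% counting intervals and dotted lines mark 2-fold. Gpc3 lies past the lower line with siDyrk2 (2.45-fold lower), and no other point lies past a line.

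**Figure D3:**
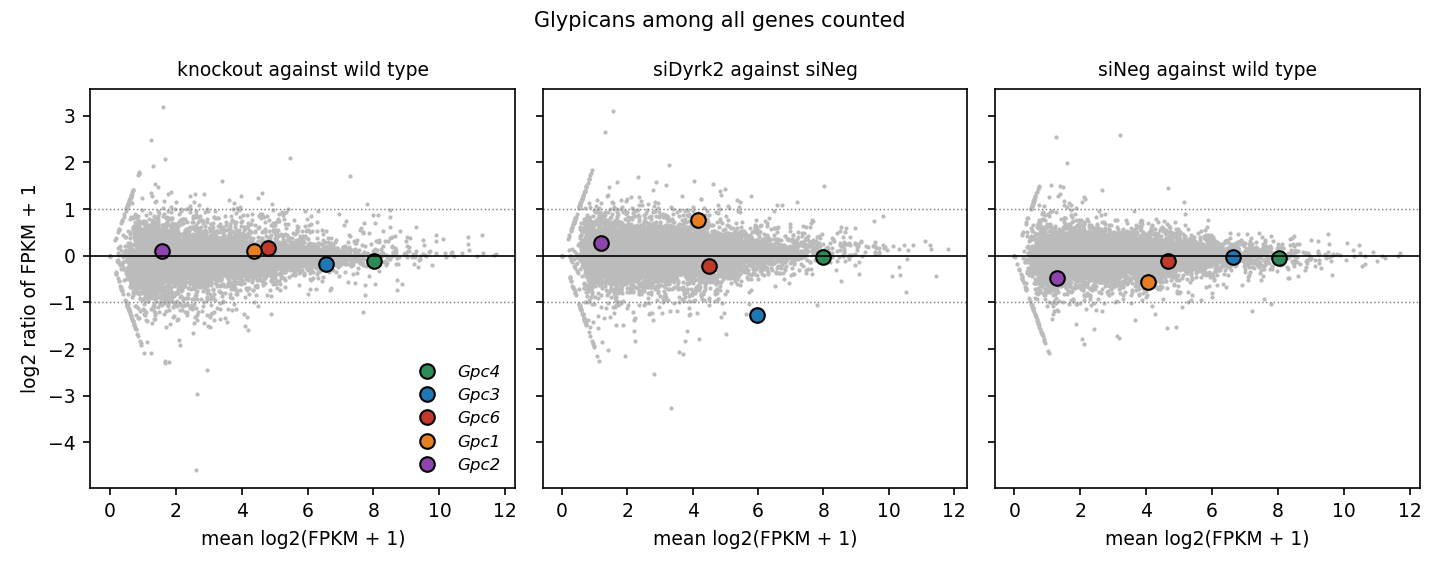
Log2 ratio of FPKM + 1 against mean log2(FPKM + 1) for 12817 genes (grey) with the glypicans in colour, 1 panel per comparison. With siDyrk2, Gpc3 at -1.27, the value it was chosen for, lies below nearly all genes of its level, while Gpc4 lies near 0 in each panel.

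Gpc3 and Gpc4 sit next to each other, so the genes around them were examined. Within 2.5 Mb on either side of the Gpc3 start, 8 other measured protein-coding genes were found. Of these, 0 of 8 passed 2-fold in any of the 3 comparisons, beside 0.928% to 1.78% of all genes. With siDyrk2 their log2 ratios ran from -0.43 for Hs6st2, the heparan sulfate 6-O-sulfotransferase gene on the far side of Gpc4, to 0.67 for Fam122b, with Gpc3 at -1.27. The chromatin gene Phf6 and the purine salvage gene Hprt, both on the near side of Gpc3, were at -0.15 and -0.04. On the whole X chromosome, 2 of 378 measured protein-coding genes were at least 2-fold lower with siDyrk2, beside 0.431% of all measured protein-coding genes. They were Gpc3, chosen on this comparison, and Ammecr1 (11.7 FPKM with siNeg and 4.44 with siDyrk2, named after its value was seen). The median log2 ratio was 0.01 over these 378 genes and 0.03 over the 455 X-linked genes of all types. In the knockout the window ran from -0.85 for Hs6st2 to 0.47 for Mospd1.

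Near Gpc6, the dehydratase-family gene Tgds was at 10 FPKM in wild type, 8.76 in the knockout, 9.32 with siNeg and 10.8 with siDyrk2, and Gpr180 was at 25.8 to 27.7 FPKM across the 4. On the other side, beyond Gpc5, Tpm3-rs7 was at 25.1 to 31.6 FPKM and Slitrk5 at 1.36 to 2.41 FPKM. None of these 4 passed 2-fold, beside the shares of all genes given above. Mbnl3, beyond Hs6st2 on the X chromosome, was at 0.56 to 1.30 FPKM.

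**Figure D4:**
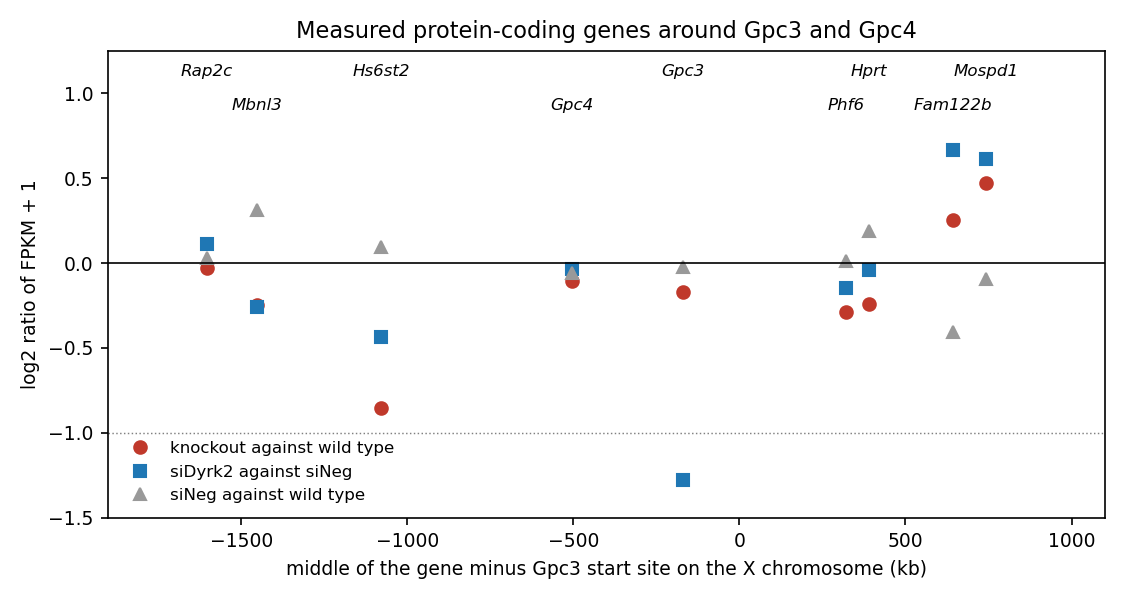
Log2 ratio of FPKM + 1 for Gpc3, Gpc4 and 7 further measured protein-coding genes, placed by the distance in kb of the gene's middle from the Gpc3 start site, for 3 comparisons. Gpc3 with siDyrk2, at -1.27, is the only point below the dotted 2-fold line.

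The 4 syndecans, membrane-spanning heparan sulfate proteoglycans that share ligands with glypicans, were all measured, and 0 of 4 passed 2-fold in any comparison. Over all genes the shares were 1.78% in the knockout, 1.54% with siDyrk2 and 0.928% in siNeg against wild type. At those shares a count of 0 in a list this small, or in the heparan sulfate and partner lists below, says little. Sdc3 had the largest ratio among the syndecans. It stood at 28 FPKM in wild type, 32.8 in the knockout, 25.5 with siNeg and 41 with siDyrk2, which was the high library, 1.61-fold above siNeg (1.54 to 1.69). The syndecan sum was 151.6 FPKM with siNeg and 181.2 with siDyrk2, while the glypican sum was 389.4 and 332.2 in that order. Of 10 other heparan sulfate core proteins, 7 were measured and 0 passed 2-fold. Tgfbr3 (betaglycan), a TGF-beta coreceptor, stood at 22.7 FPKM in wild type, 24.1 in the knockout, 22.6 with siNeg and 13.9 with siDyrk2, 1.62-fold below siNeg (1.53 to 1.72). Its 3 other libraries lay close together and siDyrk2 was the low one. The collagen gene Col18a1 had 24.9 FPKM with siNeg and 37.3 with siDyrk2, and the hyaluronan receptor gene Cd44 had 45.8 FPKM in wild type against 27.1 in the knockout. The basement membrane proteoglycan genes Hspg2 (perlecan), at 82.4 to 91.5 FPKM, and Agrn (agrin), at 12.5 to 13 FPKM, were near equal in all 4.

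No gene that builds or sulfates the sugar chain passed 2-fold, at list sizes for which the shares over all genes given above amount to less than 1 gene. Of 18 genes of linker and chain synthesis, 17 were measured and 0 passed 2-fold, with medians of 0.00 in the knockout and -0.08 with siDyrk2. Ext1, a subunit of the polymerase, was at 27.7 FPKM in wild type, 24.2 in the knockout, 29.1 with siNeg and 23.6 with siDyrk2. Papss2, which makes the sulfate donor, had 10.8 FPKM with siNeg and 16.7 with siDyrk2 (log2 ratio 0.59). Of 16 modification genes 10 were measured and 0 passed 2-fold. Hs6st2 stood at 39.1 FPKM in wild type, 21.2 in the knockout, 41.8 with siNeg and 30.7 with siDyrk2, lower in both Dyrk2-depleted libraries, by 1.85-fold (1.77 to 1.92) in the knockout and 1.36-fold (1.31 to 1.41) with siDyrk2. Ndst1, the N-deacetylase and N-sulfotransferase gene, was 1.31-fold (1.26 to 1.36) and 1.24-fold lower (1.20 to 1.29) in the same order. Hs3st1 was 1.66-fold higher in the knockout (1.41 to 1.97).

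Of 12 enzymes that act on heparan sulfate proteoglycans after synthesis 9 were measured and 0 passed 2-fold. Their log2 ratios were -0.30 to 0.92 in the knockout and -0.73 to 0.67 with siDyrk2. This count and that of the anchor genes below stand beside the shares over all genes given above. Notum, a secreted hydrolase that removes the lipid from Wnt ligands and binds glypicans, was below 1 FPKM in every library. Pcsk6, a furin-type convertase, stood at 27.1 FPKM in wild type, 52.2 in the knockout, 16.7 with siNeg and 27.2 with siDyrk2. The siDyrk2 level was close to that of wild type, and siNeg was the low library. Pcsk5, of the same enzyme family, stood at 3.48 FPKM in wild type, 2.65 in the knockout, 2.54 with siNeg and 1.14 with siDyrk2, 2.23-fold below siNeg (1.96 to 2.53), though less than 2-fold on FPKM + 1. Furin itself was at 16.3 to 18.8 FPKM. The sulfatase gene Sulf2 was at 62.9 FPKM in wild type, 74.8 in the knockout, 53.9 with siNeg and 66.3 with siDyrk2. Of 28 genes of GPI anchor synthesis and attachment 26 were measured and 0 passed 2-fold, with Pigx at 7.33 FPKM with siNeg and 11.3 with siDyrk2.

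Taking the 6 lists of syndecans, other core proteins, chain synthesis, modification, processing and anchoring as 1, 73 of 88 genes were measured. In the knockout 39 had a ratio above 0 and 33 below, with a median of 0.01, and with siDyrk2 38 were above and 35 below, with a median of 0.01. The Gpc3 ratio of -1.27 with siDyrk2 lay outside the range of these 73, which ran from -0.73 for Pcsk5 to 0.67 for Pcsk6. In the knockout the Gpc3 ratio of -0.17 lay within a range of -0.85 for Hs6st2 to 0.92 for Pcsk6. Since Gpc3 was chosen as low with siDyrk2 only, nothing is read from either position.

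**Figure D5:**
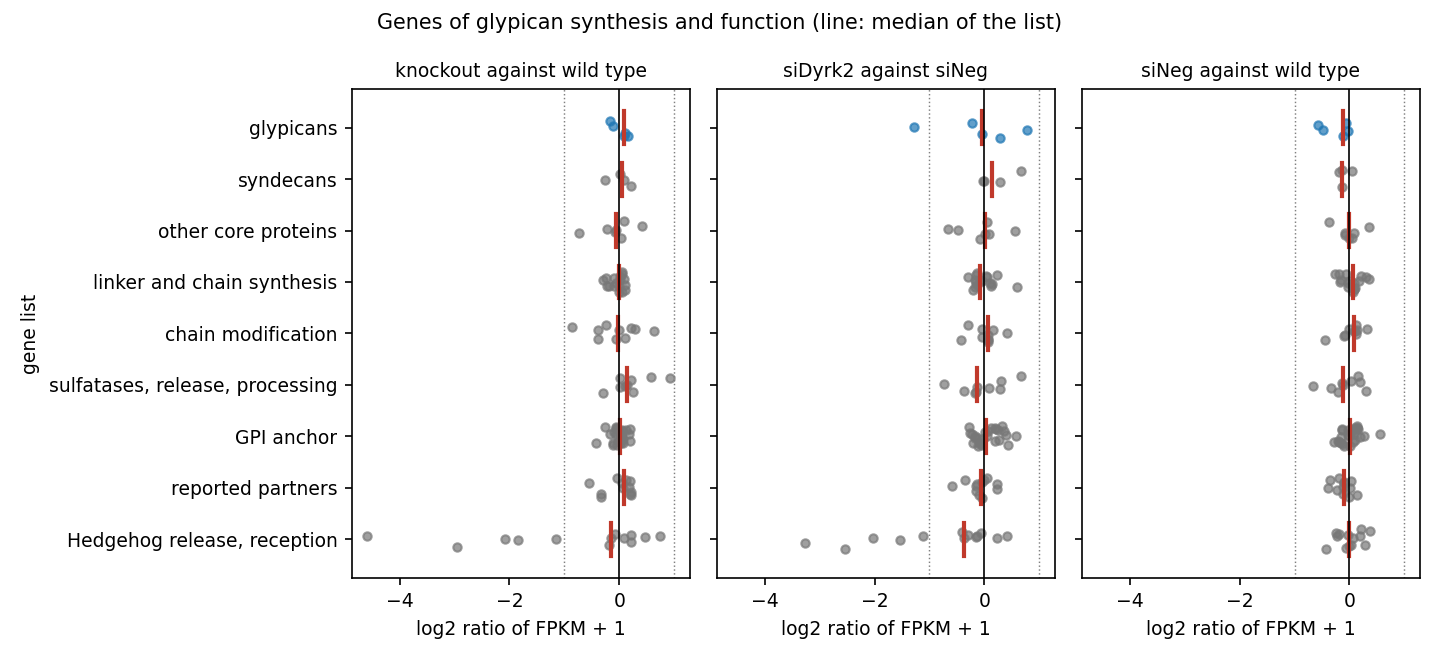
Log2 ratios of FPKM + 1 of the measured genes in 9 lists (rows) for 3 comparisons (panels). Each point is 1 gene, red lines are list medians and dotted lines mark 2-fold. Outside the Hedgehog list, Gpc3 with siDyrk2, the value it was chosen for, is the only point past 2-fold.

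Of the Hedgehog genes described here, Gli1, Gli2, Ptch1 and Hhip were each at least 2-fold lower in both the knockout and siDyrk2 libraries than in their controls. The Hedgehog list held 13 measured genes. Over all genes, 1.21% were lower by that rule in the knockout and 0.796% with siDyrk2. Gli1, the transcription factor whose own gene is the standard readout of the pathway, stood at 28.8 FPKM in wild type, 0.24 in the knockout, 30.2 with siNeg and 2.25 with siDyrk2. Ptch1, the receptor that glypicans can compete with, stood at 16.3, 1.23, 16 and 1.95 FPKM in that order. Both Dyrk2-depleted libraries were thus low for the readouts. For Gpc3 only the siDyrk2 library was low, but the family was chosen on that pattern, so the contrast is a description only. Each of Shh, Ihh and Dhh, the ligands, was below 1 FPKM in every library. The coreceptor gene Gas1 stood at 110.6 FPKM in wild type, 185 in the knockout, 96.7 with siNeg and 129.7 with siDyrk2. The coreceptor genes Cdon and Boc were higher than control in the knockout (log2 ratios 0.22 and 0.21) and lower with siDyrk2 (-0.36 and -0.30).

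Of 15 reported partners of glypicans 12 were measured and 0 passed 2-fold in any comparison, beside the shares over all genes given above. Lrp6, the Wnt coreceptor, stood at 18.9 FPKM in wild type, 21.4 in the knockout, 17.2 with siNeg and 11.1 with siDyrk2, 1.55-fold below siNeg (1.48 to 1.62). Cd81, a tetraspanin reported to bind Gpc3, was at 149.4 to 176 FPKM, and Lrp1, an endocytic receptor, at 104.3 to 119.7 FPKM. The growth factor gene Vegfa had 41.6 FPKM in wild type against 28.2 in the knockout.

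The genes whose pattern over the 4 libraries was most like each glypican were found among 7480 protein-coding genes of at least 5 FPKM in 1 library, by Euclidean distance between centred log2(FPKM + 1) values, as a description only. For Gpc3 they were Tmx3, a thioredoxin-related protein of the endoplasmic reticulum (distance 0.09), the flippase gene Atp10a (0.17), Syt13 (0.24), Tmem65 (0.24) and Gulp1 (0.26). Tmx3 stood at 9.64 FPKM in wild type, 8.94 in the knockout, 10.2 with siNeg and 3.31 with siDyrk2. Atp10a stood at 7.90, 7.27, 8.83 and 3.20 FPKM in that order. Both were picked for likeness to Gpc3, so their 3 similar libraries and low siDyrk2 library follow from that choice.

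For Gpc1 the closest were the linker histone gene H1f0 (0.07), the respiratory complex gene Ndufs1 (0.07), Hccs (0.07), Adamtsl5 (0.09) and Sod3 (0.09). H1f0 stood at 87.3 FPKM in wild type, 92 in the knockout, 56.1 with siNeg and 94.4 with siDyrk2. Its low siNeg value follows from its choice by likeness to Gpc1. For Gpc6 they were the transcription factor gene Tcf4 (0.02), Zfp12 (0.03), Eapp (0.06), Golim4 (0.06) and Sema5a (0.06). For Gpc4, whose values hardly vary, Dhx29, Toe1, Med22, Trip4 and Tra2a lay at distances of 0.015 to 0.021.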

How the data were processed

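Stranded, polyA-selected RNA libraries were made from SAG-treated primary MEFs, per the labels' protocols. Tools listed in the submitters' processing notes were HISAT2 2.0.1 and cutadapt 1.9.1, with GRCm38 as the build. No source used here names the counting program or annotation. The deposited files hold FPKM with 2 decimals and the authors' exonic gene length in bases, per the file headers. The authors' lengths equalled the GENCODE M21 exon union for all 6 glypicans, and 55394 of 55573 identifiers matched that release. Ratios used a pseudocount of 1 FPKM. Depth was recovered from FPKM steps of genes up to 200 bases (99.7% to 100% of 310 to 375 genes per library were whole within rounding), and intervals are exact binomial. The method was tested on simulated data. With 1 library per group no test, SD or p-value was possible. The members and all gene lists were chosen with earlier results of these data known. Named genes were all glypicans, up to 5 genes per list by size of ratio or past 2-fold, the 2 nearest measured protein-coding genes on each side of Gpc3 to Gpc6, Dyrk2, Gli1 and Ptch1, and the 5 most alike per glypican; other genes were named for their role. Alternatives were other pseudocounts, scalings, filters and gene classes. Python 3.11.15, pandas 2.3.3, numpy 2.4.6, scipy 1.17.1 and matplotlib 3.10.9 were used. One gene of the Hedgehog list is not reported here.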

Additional observations from a re-analysis of the deposited data

Results flagged for a closer look

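Gpc6 was higher than its control in the knockout (log2 ratio 0.16) and lower than its control with siDyrk2 (-0.22), a difference between both log2 ratios of 0.38, with counting intervals that exclude 1 in each. The fibroblast marker gene Lum, a matrix proteoglycan, was likewise higher in the knockout (0.87) and lower with siDyrk2 (-0.29), a difference of 1.17. The neuronal tubulin gene Tubb3 was lower in the knockout (-0.64) and higher with siDyrk2 (0.98), a difference of -1.61. With 1 library per group none of these 3 differences was tested.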

How the results depend on the processing

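With 1 library per group, all intervals cover counting error only, and no replicate could be left out. No paired analysis was possible because each group holds 1 library and no test was made. Under 4 other settings (pseudocounts of 0.1 and 5 FPKM, trimmed-mean and median-of-ratios scaling) no glypican log2 ratio changed sign. Gpc3 with siDyrk2 ranged from -1.32 to -1.20, the latter with a pseudocount of 5, and stayed past 2-fold. The 2 scalings moved the median of all genes by at most 0.03. Counts of genes past 2-fold depended on the settings. In the knockout, 228 became 607 with a pseudocount of 0.1, 22 with 5, 103 with a minimum of 5 FPKM and 112 among protein-coding genes. With siDyrk2, 198 became 506, 33, 85 and 86 in that order, and in siNeg against wild type 119 became 340, 11, 32 and 17. By construction, a smaller pseudocount lets more low-value genes pass, and a higher minimum or 1 gene class leaves fewer genes to count. With wild type in place of siNeg, chosen after seeing the data, the siDyrk2 log2 ratio was -1.30 for Gpc3, 0.20 for Gpc1 and -0.20 for Gpc2. With siNeg in place of wild type, also chosen then, the knockout log2 ratio was -0.15 for Gpc3, 0.67 for Gpc1 and 0.57 for Gpc2.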

Other observations

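Of 995 genes that reached 50 FPKM in any library, 5 were at least 2-fold lower with siDyrk2. The share was 0.796% of the 12817 genes that reached 1 FPKM in any library. Another 13 of the 995 were at least 2-fold higher, and the median log2 ratio of the 995 was 0.11. The 5 lower genes are named here after their values were seen. Beside Gpc3 and Cmtm3 they were the paternally expressed imprinted genes Peg3, at 30.8 FPKM against 74.6 with siNeg, and Mest, at 154.5 against 322.3. The last was the ubiquitin ligase adaptor gene Kctd10, at 36 against 74.4. All but Mest were below 50 FPKM with siDyrk2 and entered the set through other libraries, so nothing is read from their number.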
